A study of Mus musculus with 8 samples.

Results

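The hepatocyte junction and polarity genes described here were 9 listed genes: Cldn1, Cldn2, Cldn3, Cldn12, Ocln, Tjp1, Gjb1, Gjb2 and Cdh1. They were taken by name, with earlier results of these data known, out of 55341 genes in the GENCODE M21 annotation of mm10. Of these, 12261 had a transcription start site (TSS) in a region enriched for H3K27ac. Mouse primary hepatocytes (MPH) of wild-type adult male C57Bl6 mice (C57BL/6J in the methods of the study) were kept in serum-free medium and exposed for 4 h to 1 µM thapsigargin, which blocks the calcium pump of the endoplasmic reticulum (ER) and so causes ER stress, or to 0.04% DMSO as vehicle. H3K27ac, a histone mark of active promoters and enhancers, was measured by ChIP-seq in 3 libraries per treatment, with 1 input library per treatment. The deposited data used here are 3 lists of regions named UP, DOWN and unchanged in H3K27ac, with 5508, 3376 and 23312 regions. Each list gives only where a region starts and ends, so what is known of a gene is the class, position and width of its regions. No amount of change, replicate error or library depth can be given for any of them, and no test was run.

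Hepatocytes are polarized cells that face blood on one side and the bile canaliculus on the other. Tight junctions seal the canaliculus: claudins and occludin are the membrane proteins of their strands, and Tjp1 (ZO-1) is a scaffold that ties the strands to actin. Gap junctions, channels made of connexins, connect the cytoplasm of neighbouring hepatocytes, for which Gjb1 (connexin 32) and Gjb2 (connexin 26) are the main liver connexins. Adherens junctions hold cells together through cadherins, with Cdh1 (E-cadherin) among them. All 9 genes act at the cell surface or just beneath it.

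The 9 genes did not share one kind of promoter. The 150 bases before the 5′-most RefSeq start site (GRCm38.p6, the assembly of mm10) are shown for 4 of them, chosen to set a CpG-rich and a CpG-poor promoter in DOWN regions beside a promoter in an unchanged region and one in no listed region. Capitals mark a GC box (GGGCGG) or a CCAAT box (CCAAT) on either strand, and each sequence reads 5′ to 3′ towards the gene.
Cldn1 (chr16:26371840-26371989, minus strand): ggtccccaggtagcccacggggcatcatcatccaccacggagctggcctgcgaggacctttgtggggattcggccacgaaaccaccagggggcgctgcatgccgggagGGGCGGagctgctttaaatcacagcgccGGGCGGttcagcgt
Gjb1 (chrX:101376226-101376375, plus strand): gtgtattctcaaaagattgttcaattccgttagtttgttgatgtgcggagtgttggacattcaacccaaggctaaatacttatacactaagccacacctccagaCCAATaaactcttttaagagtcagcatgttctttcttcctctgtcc
Gjb2 (chr14:57104703-57104852, minus strand): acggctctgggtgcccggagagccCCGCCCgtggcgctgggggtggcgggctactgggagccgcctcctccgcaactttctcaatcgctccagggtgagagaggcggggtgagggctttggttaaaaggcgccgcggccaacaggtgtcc
Tjp1 (chr7:65371245-65371394, minus strand): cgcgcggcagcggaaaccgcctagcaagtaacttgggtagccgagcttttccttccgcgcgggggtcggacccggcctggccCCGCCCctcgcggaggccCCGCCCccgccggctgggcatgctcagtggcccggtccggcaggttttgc
Cldn1 and Gjb1 both started in DOWN regions, yet in the 250 bases before the start site G and C made up 55.6% at Cldn1 and 40.4% at Gjb1. The observed over expected CpG ratio was 0.745 at Cldn1 and 0.207 at Gjb1, against a median of 0.373 over 32851 RefSeq promoter windows. Gjb2, in an unchanged region, had 69.2% GC and a CpG ratio of 0.641. Tjp1, whose TSSs lay in no listed region, had the highest CpG ratio of these 8 windows, 0.890. Its window lies at a start site inside the gene record, near the coding TSS 156542 bp from the 5′ end, and no window was given for the 5′ TSS. The other windows had CpG ratios of 0.250 at Cldn2, 0.437 at Cldn3, 0.548 at Cldn12 and 0.644 at Ocln. The Cldn12 window was chosen among 3 after the windows had been seen, because those at the other start sites overlap exons, and their ratios were 0.750 and 0.777. So promoters in DOWN regions spanned low and high CpG content.

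A GC box was found in 5 of the 8 windows (Cldn1, Cldn3, Ocln, Tjp1 and Gjb2) and in 32.7% of all windows. Among the same windows, a CCAAT box was found at Gjb1 alone, against 33.8% of all windows, and a TATA box (TATAAA) at Cldn2 alone, against 12.4%. The E-box CAGGTG was found at Gjb2 alone, against 17.2%. With every RefSeq window of a gene counted, GC boxes were found at 7 genes, CCAAT boxes at 3 (Cldn12, Ocln and Gjb1), TATA boxes at 2 (Cldn2 and Gjb1) and the E-box at 3 (Ocln, Gjb1 and Gjb2). The other 8 patterns searched, those of factors active in ER stress or in hepatocytes among them, had no match in any of the 14 windows. They were TGACTCA (AP-1, 4.46% of all windows), TGACGTCA (a CRE-like AP-1 site, 1.55%), TGATGNAA (a C/EBP-ATF core, 3.45%), TGATGCAAT (the CHOP-ATF4 composite, which contains that core, 0.167%), TGACGTGG (0.563%), TTATGTAA (the D-box of Nfil3, 0.819%), CAAAGTCCA (an HNF4 site, 0.384%) and the ER stress element (0.113%, which contains CCAAT).

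Of the 9 genes, 7 had a TSS in an H3K27ac region, and of these 4 lay in a DOWN region, 3 in unchanged regions alone and 0 in an UP region. The genes in DOWN regions were Cldn1, Cldn3, Gjb1 and Cdh1, and those in unchanged regions Cldn12, Ocln and Gjb2. Cldn2 and Tjp1 had no TSS in a listed region. For comparison, of the 12261 genes that started in any region, 8.91% started in a DOWN one, 21.4% in an UP one and 70.1% in unchanged ones alone. Because the 9 genes were chosen with earlier results of these data known, such comparisons are descriptions only. Among protein-coding genes, 44.7% of 21924 had a TSS in any region. As a check of the direction of the names, the TSSs of the ER stress genes Hspa5, Herpud1 and Ddit3, and of Nfil3, all lay in UP regions.

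**Figure D1:**
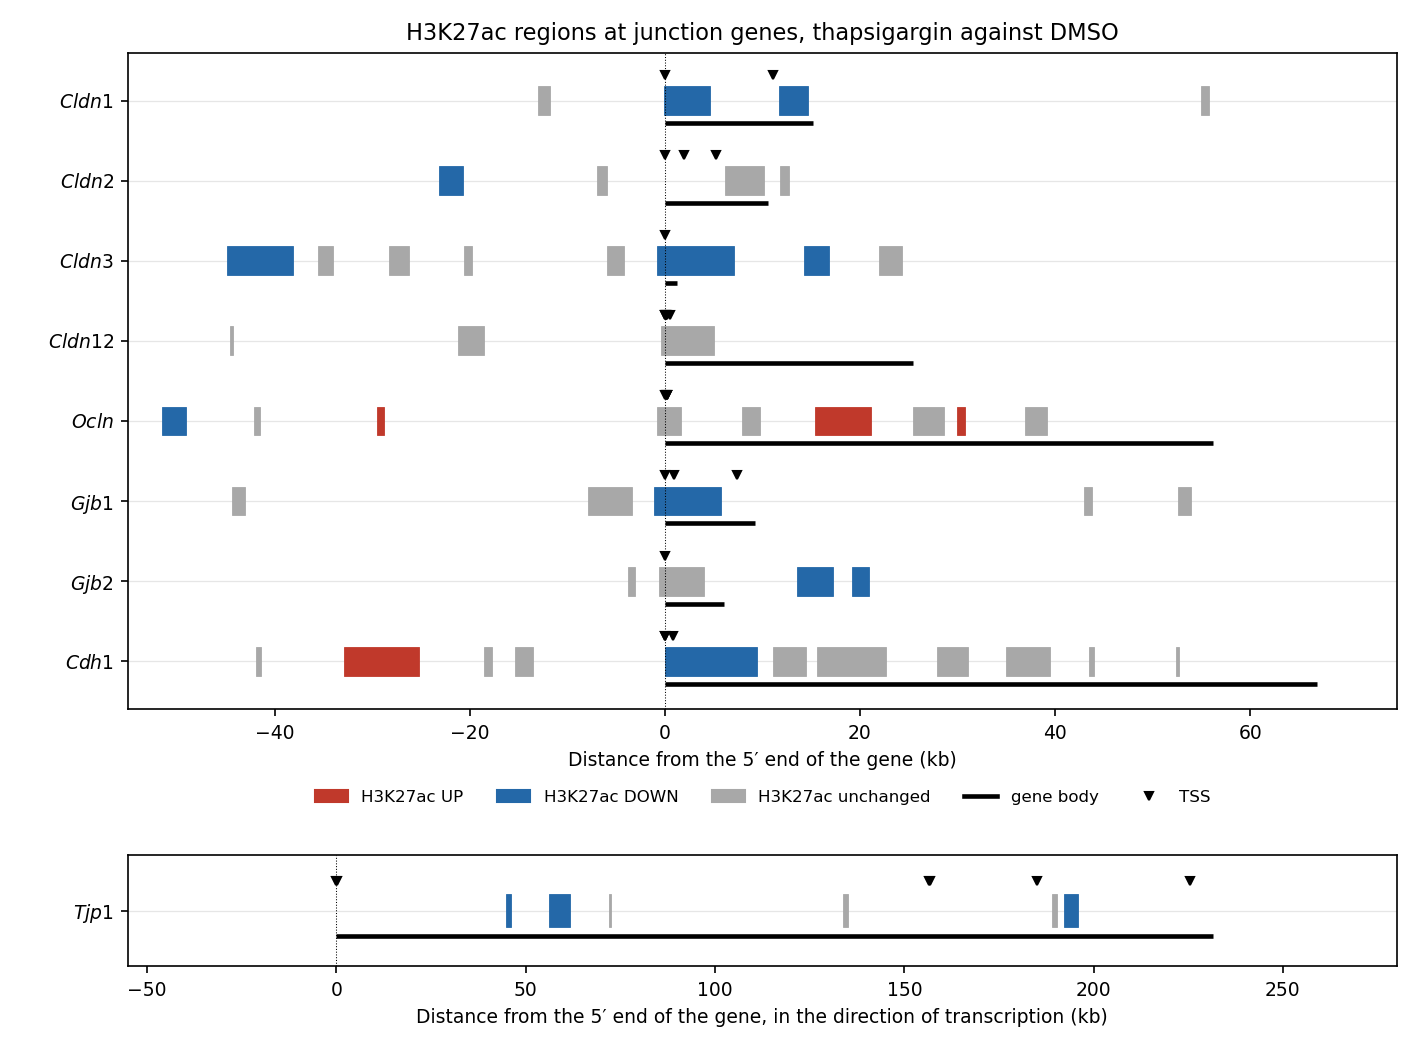
Positions of H3K27ac regions (boxes, coloured by class) along the 9 genes, by distance from the 5′ end of each gene in kb with transcription running to the right, with Tjp1 on a wider axis. Regions in a gene body or within 50 kb of a TSS are drawn. DOWN regions sit at the 5′ ends of Cldn1, Cldn3, Gjb1 and Cdh1, unchanged regions at those of Cldn12, Ocln and Gjb2, and UP regions occur around Ocln and upstream of Cdh1 alone.

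Among the genes for strand proteins of tight junctions, Cldn1 and Cldn3 had a TSS in a DOWN region. Cldn1, a claudin that seals epithelial barriers, lies at chr16:26356642-26371841 on the minus strand. Its protein-coding TSS was in a DOWN region of 4745 bp (chr16:26367196-26371940) that covers exon 1 and part of intron 1. Another DOWN region of 2988 bp (chr16:26357172-26360159) covered part of its last exon, exon 4, and of intron 3, so both regions in the gene body were DOWN. That TSS was near the edge of its region, and Cldn1 left the DOWN genes when regions were required to reach 500 bp past the start in both directions. Within 50 kb there were 2 further regions, both unchanged, of 772 and 1173 bp.

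Cldn3, another sealing claudin, is a gene of 1 exon at chr5:134986214-134987472 on the plus strand. A DOWN region of 7877 bp (chr5:134985388-134993264) covered the whole gene. Within 50 kb lay 2 more DOWN regions. One of 6702 bp, 38128 bp upstream (chr5:134941385-134948086), held the TSS of Cldn4, the neighbouring claudin gene, and one of 2514 bp, 14314 bp away on the other side, held that of Wbscr25. Between Cldn4 and Cldn3 there were 4 unchanged regions of 815 to 2059 bp, and 1 more, of 2366 bp, lay beyond Cldn3 at Abhd11. The pair of neighbouring claudin genes was therefore DOWN at both promoters with unchanged regions in between.

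Cldn12 and Ocln started in unchanged regions. All 8 annotated transcripts of Cldn12 (chr5:5489537-5514958, minus strand) began in an unchanged region of 5498 bp (chr5:5509869-5515366). Cldn12 was the only one of the 9 genes with neither an UP nor a DOWN region within 50 kb. All 5 transcripts of Ocln, which encodes occludin (chr13:100496507-100552718, minus strand), began in an unchanged region of 2418 bp (chr13:100551072-100553489). Around that promoter the classes were mixed.

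Ocln had 3 UP regions within 50 kb, 1 DOWN region and 5 unchanged regions. An UP region of 831 bp lay in intron 4, one of 5787 bp covered exon 4 with parts of introns 3 and 4, and one of 707 bp lay 28830 bp upstream. The DOWN region, of 2458 bp, was 49071 bp upstream, just inside the 50 kb limit. Ocln was thus the one gene of the 9 with more UP than DOWN regions around it. Of the 3 UP regions, 2 were narrower than 1 kb. Not all 3 were nearer to a TSS of Ocln than to that of another protein-coding gene.

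All 3 UP regions of Ocln held the AP-1 pattern TGACTCA or its complement TGAGTCA, and all 3 held it in their central 500 bp. AP-1 is the dimer of Jun and Fos family proteins. One match per region is shown, in capitals with 20 bases on each side, from the intron 4 region, the exon 4 region (which had 5 matches) and the upstream region. None of these windows overlaps an annotated exon.
chr13:100522300-100522346, plus strand: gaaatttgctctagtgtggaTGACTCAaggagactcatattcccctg
chr13:100534322-100534368, plus strand: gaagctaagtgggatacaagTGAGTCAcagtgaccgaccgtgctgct
chr13:100581849-100581895, plus strand: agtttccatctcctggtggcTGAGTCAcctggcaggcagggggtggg
Over the whole series, the central 500 bp held the pattern in 27.4% of UP regions, against 13.6% for DOWN and 19.2% for unchanged ones. Of the 14 DOWN regions of the 9 genes, 1 had it there, as had 11 of the 36 unchanged regions. One of those 11 was the unchanged Ocln region of 2262 bp. Over their full width, 8 of the 14 DOWN and 19 of the 36 unchanged regions held the pattern, so it was not particular to UP regions. The fourth UP region, upstream of Cdh1, had no AP-1 match. All patterns searched in promoters were also searched in these regions, and AP-1 alone is described. Over full width, 4 of the 4 UP regions held a TATA box, 3 a CCAAT box and 3 the E-box, beside 3 with AP-1. Each of the other patterns was in fewer. These matches are a description of the sequence, and whether AP-1 bound in these regions was not tested.

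Cldn2, a claudin that forms pores for cations and water, lies at chrX:139800828-139811386 on the plus strand. None of its 3 TSSs was in a listed region. The nearest, an unchanged region of 4096 bp over parts of exon 2 and intron 1 (chrX:139806946-139811041), began 865 bp after the most internal TSS. A DOWN region of 2444 bp (chrX:139777708-139780151) lay 20677 bp upstream. That DOWN region was not nearer to a Cldn2 TSS than to that of another protein-coding gene. The authors dropped regions with a significant change but a mix of rising and falling bins, so a TSS in no listed region cannot be told apart from one in a region they dropped.

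The scaffold gene Tjp1 (chr7:65296165-65527781, minus strand) also had no TSS in a listed region. All 6 of its regions lay in the gene body and touched no annotated exon of the gene. Of these, 3 were DOWN, with widths of 3621, 5579 and 1279 bp, and 3 were unchanged, with widths of 1425, 1319 and 759 bp. In the 5′ part of the gene, the DOWN region of 1279 bp was 44755 bp from the nearest TSS and that of 5579 bp was 56103 bp away. The third DOWN region was 7164 bp from the TSS of a transcript with a retained intron, near the 3′ end. Tjp1 therefore had the most DOWN regions in its body of the 9 genes, none of them at a start site. At 231617 bp it was also the longest of the 9 genes.

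Both gap junction genes of the set are on the study's list of liver-identity genes, and none of the other members is, Cldn1, Cldn3 and Cdh1 included. The promoters of the gap junction genes fell in different classes. Gjb1 (chrX:101376378-101385629, plus strand) had 2 of its 3 coding TSSs in a DOWN region of 6890 bp (chrX:101375286-101382175) over exon 1 and part of intron 1. Its most internal TSS lay 1561 bp beyond that region. The 4 other regions within 50 kb were unchanged. The nearest of them, of 4537 bp, ended 3326 bp before the first TSS.

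Gjb2 (chr14:57098600-57104702, minus strand) had its single TSS in an unchanged region of 4603 bp (chr14:57100692-57105294) that covered exon 1, intron 1 and part of exon 2. Past its 3′ end lay 2 DOWN regions, of 3763 bp and 1783 bp, at 13515 and 19155 bp from the TSS. Neither held a TSS of any gene. The neighbouring connexin genes Gjb6 and Gja3 had no TSS in a listed region. Gjb2 thus combined an unchanged promoter with DOWN regions downstream.

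Cdh1 (chr8:106603351-106670246, plus strand) had the widest region of the 9 genes at a start site, a DOWN region of 9388 bp (chr8:106603383-106612770) that reached from exon 1 past exon 2. Its class at the TSS rests on an edge. The 2 coding TSSs lay 32 and 4 bp before the first base of the region, and only the TSS of a processed transcript, 792 bp into the gene, lay inside. Of the other 6 regions in the gene body, 5 lay in intron 2 and 1 in intron 5, all unchanged, with widths of 371 to 7114 bp. An UP region of 7665 bp, 25208 bp upstream, held the TSS of Gm10073. Cdh1 had 10 regions within 50 kb, the most of the 9 genes.

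Regions at the starts of these genes were wide. Those in DOWN regions measured 4745 bp at Cldn1, 6890 bp at Gjb1, 7877 bp at Cldn3 and 9388 bp at Cdh1, each above the median of 3828 bp over the 928 DOWN regions that hold a TSS. They stood at the 61.2, 78.9, 83.7 and 89.7 percentiles of those regions. The unchanged regions measured 2418 bp at Ocln, 4603 bp at Gjb2 and 5498 bp at Cldn12, against a median of 1530 bp over 7667 unchanged regions, at the 73.5, 92.2 and 94.7 percentiles. Width moved with class over all genes. Genes were split into 10 bins of about equal size by the width of the widest region that held one of their TSSs. A gene counted as DOWN or UP where any region at its TSSs had that class, which need not be the widest. The widest bin, which holds Cldn3, Gjb1 and Cdh1, had 31.7% of its genes DOWN and 28.5% UP. The next bin, which holds Cldn1, Cldn12 and Gjb2, had 18.8% DOWN, and the narrowest 1.30%. The part of width in the count of 4 DOWN genes was not tested.

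**Figure D2:**
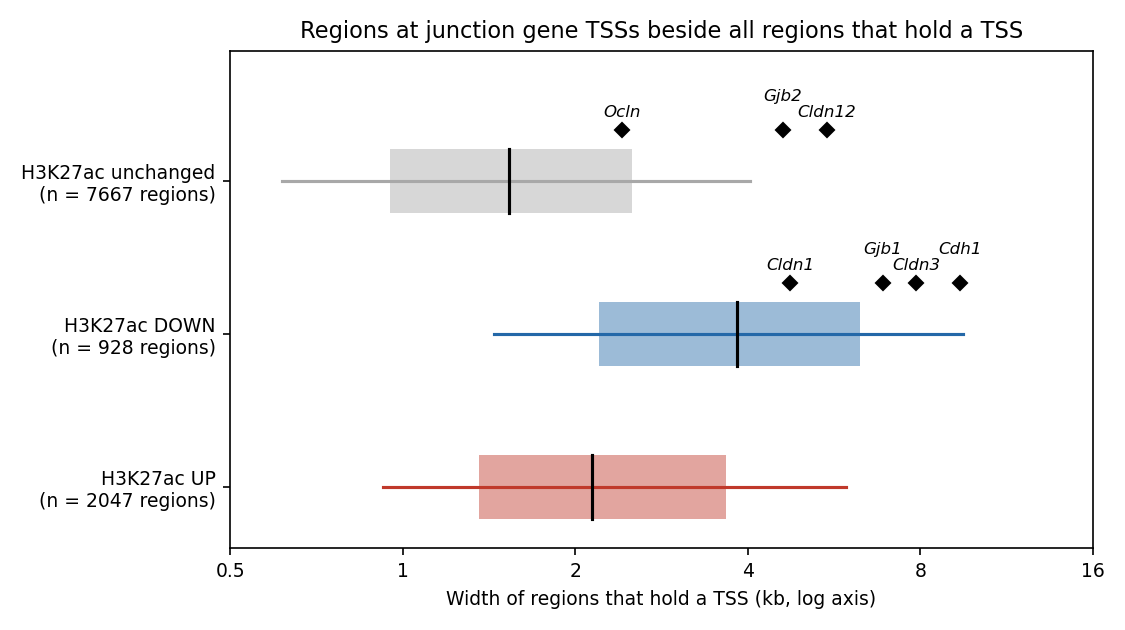
Width in kb (log axis) of regions that hold a TSS, by class, with boxes from the lower to the upper quartile, black lines at the median and thin lines from the lowest to the highest decile limit. Diamonds are the regions at the 7 genes, of 2418 to 9388 bp, all above the median of their class.

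Within 50 kb of the TSSs of the 9 genes there were 51 regions, of which 13 (25.5%) were DOWN, 4 (7.84%) UP and 34 (66.7%) unchanged. No region was counted for more than one gene. Over the whole series, DOWN regions made up 10.5%, UP regions 17.1% and unchanged regions 72.4%. At least 1 DOWN region lay within 50 kb of 8 of the 9 genes, all but Cldn12, and at least 1 UP region near 2, Ocln and Cdh1. Only 9 of the DOWN and 2 of the UP regions were nearer to one of these genes than to another protein-coding gene, both UP ones at Ocln. Those that were not include the DOWN regions of Cldn2 and Ocln, the Cldn3 DOWN region at the Cldn4 TSS and the UP region of Cdh1. The 9805 protein-coding genes that started in a region had a DOWN region within 50 kb in 31.3% of cases and an UP region in 53.6%, which compares with 6 and 2 of the 7 junction genes that started in one. DOWN regions outnumbered UP regions at 6 genes (Cldn1, Cldn2, Cldn3, Tjp1, Gjb1 and Gjb2). Of the 7 junction genes that started in a region, 4 had more DOWN than UP regions, against 18.6% of the 9805 protein-coding genes that started in one. Where there was any DOWN region, summed DOWN width ranged from 2444 bp at Cldn2 to 17093 bp at Cldn3. The width at Cldn3 includes the regions at the Cldn4 and Wbscr25 TSSs. In gene bodies there were 26 regions, with 8 DOWN, 2 UP and 16 unchanged.

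**Figure D3:**
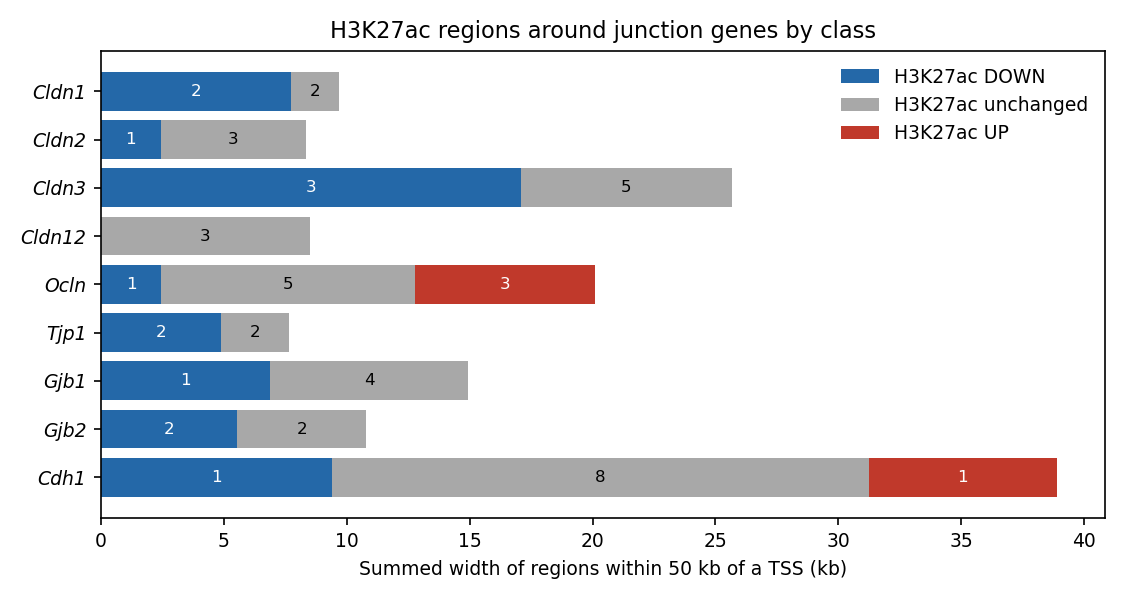
Summed width in kb of the DOWN, unchanged and UP regions within 50 kb of a TSS of each gene, with the number of regions written in each bar. Cldn3 has the most DOWN width (17093 bp, which includes the regions at the Cldn4 and Wbscr25 TSSs) and Cldn12 has none. UP width occurs at Ocln (7325 bp) and Cdh1 (7665 bp).

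Other genes of the same structures were taken from 4 lists, also chosen with earlier results of these data known. Of 25 other tight junction genes, 11 had a TSS in a region, and of these 4 lay in DOWN regions, 1 in an UP region and 6 in unchanged regions alone. The DOWN genes were Cldn4, Cldn14, F11r (junctional adhesion molecule A) and Cxadr, an adhesion receptor whose DOWN region of 20213 bp was wider than any at the 9 genes. None of 18 other connexin genes had a TSS in a listed region, so among these connexins only Gjb1 and Gjb2 had a listed region at a start site.

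Of 16 other adherens junction and desmosome genes, 14 had a TSS in a region, with 4 in DOWN, 3 in UP and 7 in unchanged regions alone. The genes with a DOWN region were Cdh2 (N-cadherin), Ctnnd1 (p120 catenin), Nectin1 and Afdn (afadin). Only 1 of the 30 transcripts of Ctnnd1 started there, and 26 started in an unchanged region. The UP genes were Jup (plakoglobin), Nectin2 and Vcl (vinculin). Ctnnb1 and Ctnna1, the catenins that link cadherins to actin, were in unchanged regions. Of 22 polarity genes, 20 had a TSS in a region, with 15 in unchanged regions alone, among them Scrib, Dlg1 and Stk11. Prkci (atypical protein kinase C) had start sites in DOWN regions alone, and Pard6a in an UP region alone. Llgl2 had 2 of 12 transcripts starting in a DOWN and 3 in an unchanged region. Pard3 had 1 of 28 starting in an UP region and 17 in unchanged ones, and Mark2 had 11 of 21 in an UP and 1 in a DOWN region. Over the 4 lists, 45 of 81 genes had a TSS in a region, with 11 in DOWN and 7 in UP regions, to be read beside the 8.91% and 21.4% of all genes.

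**Figure D4:**
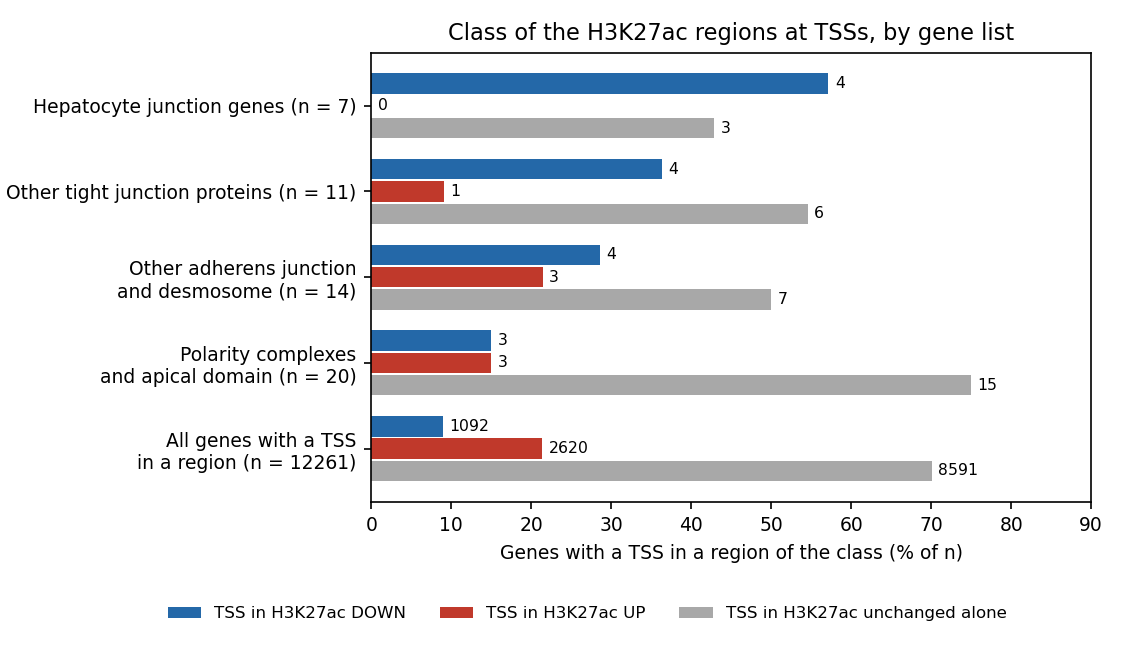
Percent of the genes with a TSS in a region whose TSS lay in DOWN, UP or unchanged regions alone, for the hepatocyte junction genes, 3 other lists and all genes, with gene counts at the bars. A gene can count in both DOWN and UP. The 7 junction genes have 4 in DOWN and 0 in UP regions, and all 12261 genes have 1092 and 2620.

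Markers of hepatocytes were covered by regions, and most markers of other liver cells were not. All 7 hepatocyte markers found in the annotation, Alb and Ttr among them, had a TSS in a region. Of these, 3 were DOWN (Apoa1, Fgb and Serpina1a), 1 was UP (Asgr1) and 3 were unchanged (Alb, Ttr and Apob), beside 4 DOWN, 0 UP and 3 unchanged among the 7 junction genes. Over all genes that started in a region, 8.91% were DOWN and 21.4% UP, and 44.7% of protein-coding genes started in one. Of 6 cholangiocyte markers, 2 had a TSS in a region (Sox9, UP, and Spp1, unchanged), while Krt19, Krt7, Epcam and Cftr did not. Of 5 endothelial markers, Stab2 did, and none of 5 macrophage, 5 stellate cell and 5 lymphocyte markers did. Cholangiocytes also express Cdh1 and several claudins, and their part in these regions was not tested.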

How the data were processed

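H3K27ac ChIP-seq was done on MPH from 3 independent preparations. The authors mapped reads to mm10 with Bowtie, removed duplicates and blacklisted reads, called broad peaks with MACS2 on all pooled H3K27ac libraries against input, and counted reads in bins with csaw. Bins were filtered against input, normalized by loess, tested with paired quasi-likelihood models and combined within each peak. Significant regions were named UP or DOWN by their ratio of rising to falling bins, those between the limits were dropped, and the rest were unchanged. The deposited files hold region positions in base pairs and a name, with no counts or signal, so depth is unknown and no replicate could be compared.

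Regions were joined here to all TSSs of GENCODE M21, while the study used an earlier release. A region counted for a gene where it held a TSS, overlapped the gene record or lay within 50 kb of a TSS, by the nearer edge. Introns and exons are those of the protein-coding transcript with the longest span. Promoters are the RefSeq windows with the 5′-most start site, all 14 identical to the genome, with both strands searched. Cdh1 had no window. Tf and Cldn25 were not matched. The members and lists were chosen with earlier results of these data known. The named genes were the 9 genes, genes of the 4 lists in UP or DOWN regions, neighbours and markers, and the unchanged genes named as examples were picked afterwards. The class at the TSS of 1 gene counted in these lists is not reported here by name. Counting functions were tested on simulated data. Python 3.11.15, numpy 2.4.6, pandas 2.3.3 and matplotlib 3.10.9 were used.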

Additional observations from a re-analysis of the deposited data

How the results depend on the processing

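Of 33 region counts recomputed under other definitions, 29 stayed within 1.5 times the reported count. UP regions within 50 kb of the 9 genes numbered 4, against 0 within 10 kb, 2 among regions of at least 1 kb, and 2 among regions nearer to one of these genes than to another protein-coding gene. DOWN regions numbered 13, against 6 within 10 kb and 9 among regions nearer to one of these genes than to another protein-coding gene. By that nearest-gene rule, Cldn2 and Ocln had no DOWN region. With protein-coding transcripts or 1 TSS per gene, 3 genes instead of 4 started in DOWN regions, without Cdh1. By base pairs, Cdh1 joined the 6 genes with more DOWN than UP. By the nearest-gene rule, Cdh1 took the place of Cldn2 among those 6. Within 10 kb the genes with more DOWN than UP were Cldn1, Cldn3, Tjp1, Gjb1 and Cdh1. Counting every RefSeq window of a gene, added after seeing the data, moved the genes with a CCAAT box from 1 to 3, with a TATA box from 1 to 2 and with the E-box from 1 to 3. No paired analysis was possible because the lists hold no value per library, and for the same reason no library could be left out. A class reflects the thresholds of the authors, and unchanged means that no change passed them.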
